A study of Rattus norvegicus with 24 samples.

Results

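The 10 genes described here encode the proteins that recognise bacterial lipopolysaccharide (LPS) and pass the signal into the cell: Tlr4, Ly96, Cd14, Lbp, Myd88, Tirap, Irak1, Irak2, Irak3 and Irak4. They were chosen by name, as every non-control probe of the array whose gene name was one of the 10, which gave 12 probes out of 30367 probes and 25885 gene names. Ly96 and Irak3 had 2 probes each, and the other 8 genes had 1.

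Expression was measured in the blood of male Sprague-Dawley rats, which were 8 weeks old at the start and were fed for 6 weeks. Rats received a semi-synthetic diet without beta-glucan (G0), or the same diet with an oat beta-glucan of high (G1) or low (G2) molecular weight. Within each diet, rats were injected repeatedly into the tail vein with saline (C-G0, C-G1 and C-G2) or with LPS of E. coli at 10 mg/kg (LPS-G0, LPS-G1 and LPS-G2), which is used to induce enteritis, and blood was taken when the feeding ended. Each of the 6 groups had 4 two-color arrays, 1 rat on each, hybridised against a common reference pooled from blood RNA of the rats of the experiment, so that 24 arrays were compared. RNA was taken from whole blood, so it came from every kind of blood cell.

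In the textbook pathway, LBP carries LPS to CD14, and CD14 hands it to MD-2 (the product of Ly96), which sits on the outside of the receptor TLR4. The receptor's inner domain binds the adaptor TIRAP, which brings in MYD88, and MYD88 assembles the kinases IRAK4, IRAK1 and IRAK2 into a complex that activates NF-kB. IRAK3, also called IRAK-M, lacks kinase activity of the usual kind and dampens the pathway, mainly in monocytes and macrophages. LBP is made chiefly by the liver.

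The array read each gene through 60-base probes, and 5 of them are shown because they cover the range of the results: the kinase Irak1, measured on every array, the adaptor Tirap, measured on no array, the kinase Irak4, measured on 1 array, and both probes of Ly96, which share a transcript but were detected on unequal numbers of arrays. Sequences are those of the array design, 5′ to 3′, and coordinates are those of the design on rn4.
Irak1 probe (chromosome X, 159961767 to 159961826, minus strand): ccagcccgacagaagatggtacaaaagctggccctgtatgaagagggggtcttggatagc
Tirap probe (chromosome 8, 34967694 to 34967753, minus strand): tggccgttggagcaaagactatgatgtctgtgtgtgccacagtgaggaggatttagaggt
Irak4 probe (chromosome 7, 133077639 to 133080589, plus strand): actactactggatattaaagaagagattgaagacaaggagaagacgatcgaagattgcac
Ly96 probe 1 (chromosome 5, 1701973 to 1702032, minus strand): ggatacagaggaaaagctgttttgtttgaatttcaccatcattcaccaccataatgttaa
Ly96 probe 2 (chromosome 5, 1705212 to 1705271, minus strand): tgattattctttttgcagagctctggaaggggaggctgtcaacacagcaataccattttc
The Irak4 probe spans more of the genome than its 60 bases, so its letters come from both sides of a gap in the genomic sequence. The probes of Ly96 had a GC content of 35.0% and 43.3%, that of Irak4 38.3% and that of Irak1 55.0%. Irak1 was measured by 2 spots on each array, Irak4 by 2, and Tirap and each probe of Ly96 by 1 spot. The other probes lay on chromosome 5 (Tlr4, 83577410 to 83577469), 18 (Cd14, 29374990 to 29375049), 3 (Lbp, 149043196 to 149043255), 8 (Myd88, 124299763 to 124299822), 4 (Irak2, 149599218 to 149599277) and 7 (Irak3 probe 1, 59408261 to 59408320, and probe 2, 59409272 to 59409331).

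The quality of the arrays bears on every value below. Between 7786 and 15385 of the 30367 probes were well above background in Cy3 (median 11152.5), against 14400 to 22449 in Cy5 (median 17104). The arrays lay on 3 slides of 8, and the arrays of the third slide had a median of 13532 such probes in Cy3. The number of arrays limits the precision. The titles of LPS-G0 replicates 3 and 4 name an LPS injection while another field of the same records says control, and results that rest on LPS-G0 were also computed without them. C-G0 replicate 1 held the most extreme value of its group for all 4 genes that could be tested.

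Values are log2 ratios of Cy3 over Cy5, that is, of the rat over the common reference. The labels place the rat in Cy3 and the reference in Cy5, whereas the methods of the study place them the other way round, so every sign in this report is opposite to the one that the methods' dyes would give. With the methods' dyes, the Cy5 signals would be those of the rats. The detection counts in Cy3, the filter for testing and the bounds on fold given below would then describe the reference. Arrays of a group differed more in Cy3 than in Cy5 (median SD 0.38 against 0.26 on the log2 signal, with 95.3% of 7074 probes more variable in Cy3). The lowest correlation of the ratios between any 2 of the 24 arrays was -0.16 over all probes and -0.54 over the probes that were tested.

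Detection differed widely among the members. Myd88, Irak1 and Irak3 (probe 1) were well above background in Cy3 on 24 of 24 arrays, as were 23.3% of all probes. Irak2 was so on 17 arrays and Cd14 on 16. Lbp was detected on 5 arrays, Ly96 on 6 by probe 1 and on 2 by probe 2, and Tlr4 and Irak4 on 1 each. Tirap and Irak3 probe 2 were detected on 0 arrays in Cy3, as were 32.8% of all probes.

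**Figure D1:**
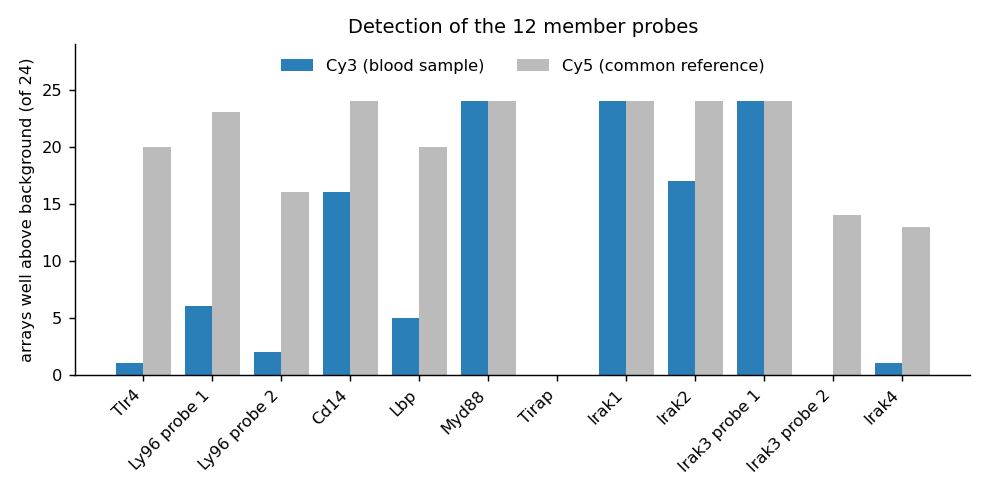
The bars count, for each of the 12 probes, the arrays out of 24 that detected it (well above background) in Cy3 (rat, blue) and in Cy5 (common reference, grey). Myd88, Irak1 and Irak3 probe 1 reach 24 in both channels, while Tlr4 reaches 1 in Cy3 and 20 in Cy5, and Tirap has no bar in either channel.

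The Cy5 channel, which holds the reference by the labels, detected more of the same genes. In Cy5, Tlr4 was well above background on 20 arrays, Ly96 on 23 (probe 1) and 16 (probe 2), Lbp on 20, Irak4 on 13, Irak3 probe 2 on 14, and Cd14 and Irak2 on 24. The processed signals themselves were alike in both channels for several of these genes: Tlr4 had a median of 24.01 in Cy3 and 32.7 in Cy5, Lbp 39.3 and 42.6, and Cd14 95.8 and 97.99. More probes were well above background in Cy5 than in Cy3 on 24 of 24 arrays, and the part of the channel in the missing calls was not tested. For Tlr4, Ly96, Lbp, Tirap and Irak4, a dim signal on these arrays sets a limit on what was measured and is not a statement that the transcript was absent from blood.

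Lbp, the carrier, was detected only on the third slide, on 5 of its 8 arrays: C-G0 replicate 4, C-G1 replicate 4, C-G2 replicates 3 and 4, and LPS-G2 replicate 4. Its Cy3 signal ran from 12.2 to 91.7 over the 24 arrays. The 5 hepatocyte genes used to check for RNA of liver origin (Alb, Apoa1, Ttr, Fgb and Serpina1) also could not be tested, 0 of 5, and each was detected on 1 to 6 arrays.

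Cd14, the membrane protein that receives LPS from LBP, was detected most often on the receptor side, with Cy3 signals from 41.7 to 154. It was well above background on 2 of 4 arrays in C-G0 and LPS-G0 and on 3 of 4 in C-G1, C-G2, LPS-G1 and LPS-G2. Its log2 ratio was -0.34 ± 0.72 (SD, n = 4) in C-G0, -0.12 ± 0.58 in C-G1, -0.15 ± 0.46 in C-G2, -0.34 ± 0.62 in LPS-G0, while LPS-G1 had -0.62 ± 0.46 and LPS-G2 had 0.06 ± 0.53. LPS-G1 and LPS-G2 had the lowest and the highest mean, and their arrays overlapped (-1.17 to -0.09 and -0.60 to 0.53). Since no group had the gene above background on all of its arrays, Cd14 was not tested. By slide, it was detected on 4, 5 and 7 of 8 arrays.

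Ly96, which encodes the LPS-binding partner of TLR4, gave unequal answers through its 2 probes. Probe 1 was well above background on 1 array of C-G0, 1 of C-G1, 2 of C-G2 and 2 of LPS-G2, and probe 2 on 1 of C-G1 and 1 of LPS-G2. Both reached their highest Cy3 signal on 1 array, LPS-G2 replicate 2, at 134 for probe 1 and 199 for probe 2, with 1 spot each. By mean Cy3 signal LPS-G2 was not the brightest group. Probe 1 had 73.2 in C-G1, 71.3 in C-G2 and 54.7 in LPS-G2, and probe 2 had 42.7 in C-G1 and 38.8 in LPS-G2. The lowest ratio of any member, -3.73, was that of Ly96 probe 1 in C-G0 replicate 3, where the single spot read 388 in Cy5, the highest Cy5 value of that probe.

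For a probe that no array of one group and some arrays of the other detected, a floored ratio, called a bound here, was computed. It divides the mean of the brighter group by a floored mean of the dim group. For the floor, each dim array took the higher of its own signal and the dimmest detected signal of the array. Signals were taken per channel after normalization and without a dye swap to balance the dyes. The brighter mean includes arrays that did not detect the probe, so the ratio is not a strict lower limit of the fold. Against LPS-G0, where Ly96 was below background on 4 of 4 arrays, the bound of LPS-G2 by probe 1 was 1.76 (61.3 against 31.2, detected on 2 of 4 arrays). Without LPS-G2 replicate 2, its brightest array, it was 1.29. Before that normalization the mean Cy3 signals of probe 1 were 54.7 and 32.2. Their ratio is smaller than the bound of 1.76, so that bound holds for the normalized signals only. LPS-G0 replicate 3 then read 61.5, above LPS-G2 replicates 1 and 3 (25.4 and 36.0) and below replicates 2 and 4 (134 and 73.0). By probe 2 the bound was 1.56 (42.8 against 20.9), but LPS-G2 replicate 2 was the only array of the group to detect it, and without that array there was no bound. LPS-G1 was at 0 of 4 arrays for both probes, and the bounds of LPS-G2 against it (1.30 by probe 1 and 1.399 by probe 2) were also lost without LPS-G2 replicate 2. Bounds were not confined to LPS-G2. For C-G1 against LPS-G1 the bound was 1.43 by probe 1 and 1.29 by probe 2, each detected on 1 of 4 arrays. Without C-G1 replicate 3, the brightest array, these were 1.32 and 1.15. By slide, probe 1 was detected on 0, 2 and 4 of 8 arrays. Slide 3 held 2 LPS-G2 arrays but only 1 each from LPS-G0 and LPS-G1. The part of the slide in the bounds of LPS-G2 was not tested. No test stands behind any of the bounds given here.

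Tlr4, the receptor, was detected on 1 array, LPS-G2 replicate 3. Its Cy3 signal lay between 10.2 and 56.3 on the 24 arrays, and its highest value, in C-G1, was not among those called above background. For LPS-G2 against LPS-G0 the bound was 1.28 for Tlr4 (31.0 against 20.1, 1 of 4 arrays detected) and 1.55 for Lbp (45.2 against 23.8, 1 of 4). Each of these bounds uses the mean of 4 LPS-G2 arrays, of which 1 detected the gene, replicate 3 for Tlr4 and replicate 4 for Lbp. Both replicates lay on slide 3, the only slide on which either gene was detected (1 of 8 arrays for Tlr4 and 5 of 8 for Lbp). From LPS-G0, that slide held replicate 4 only. Group and slide are therefore not separated in these bounds, and the part of the slide was not tested. Without LPS-G2 replicate 2, the brightest array, the bounds were 1.20 for Tlr4 and 1.42 for Lbp. No bound was computed without the array that detected the gene.

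**Figure D2:**
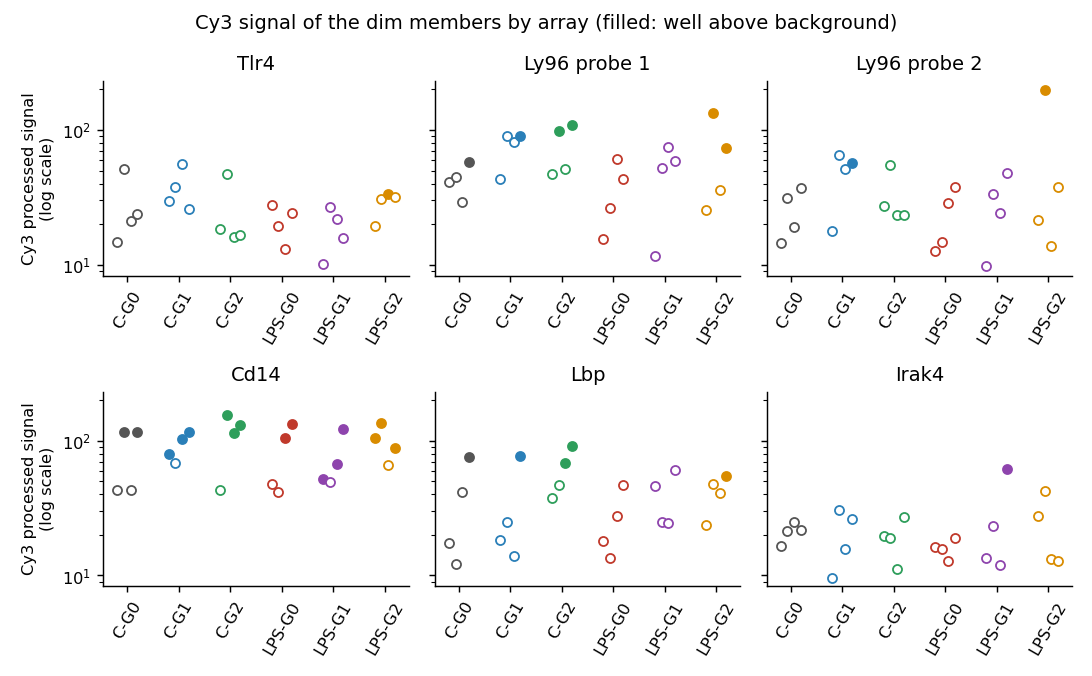
Each point is the Cy3 processed signal of 1 array on a log scale, by group, for the 6 probes of the dim members that were detected on at least 1 array, and filled points were well above background. Cd14 has filled points in every group, while Tlr4 and Irak4 have 1 filled point each, in LPS-G2 and LPS-G1.

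Among the cytoplasmic members, Tirap and Irak4 could not be followed. Tirap, the adaptor that links TLR4 to MYD88, had a median Cy3 signal of 12.8 and a median Cy5 signal of 8.80, and was below background in both channels on all arrays. Irak4, the kinase that starts the IRAK cascade, was detected on 1 array, LPS-G1 replicate 4, at a Cy3 signal of 61.5 against a median of 18.9. Its ratios ran from -1.35 to 1.404, both ends within LPS-G2.

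The 2 probes of Irak3 disagreed on whether the gene could be seen. Probe 1, with 10 spots on each array, had Cy3 signals from 171 to 910, whereas probe 2, with 2 spots, had 10.2 to 81.9 and was never above background in Cy3. Both carry the same RefSeq accession, lie on the same strand and have the same GC content. Values of Irak3 below are those of probe 1 only.

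That left 4 genes for testing: Myd88, Irak1, Irak2 and Irak3. A probe was tested if it was well above background on every array of at least 1 group, which 10313 probes met on the 16 arrays of the study's own comparisons (all LPS groups and C-G0), and 10708 on all 24. Irak2 entered through C-G1 and LPS-G1, the groups in which 4 of 4 arrays detected it. A filter of this kind lets in genes through their high groups, so the direction of Irak2 in comparisons with C-G1 and LPS-G1 is not independent of it. Irak2 was detected on 2 of 4 arrays in C-G0, 3 of 4 in C-G2 and LPS-G2, and 1 of 4 in LPS-G0. Its values in comparisons with C-G1 or LPS-G1 are therefore a description, also where it is among the 4 genes counted. In whole blood, fewer cells of a type and less RNA in each cell cannot be told apart.

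Myd88, the adaptor shared by most Toll-like receptors and the interleukin-1 receptors, had Cy3 signals from 854 to 3347. Its log2 ratios for replicates 1 to 4 were -0.90, -0.01, -0.32 and -0.004 in C-G0, -0.01, 0.46, 0.34 and 0.16 in C-G1, and -0.35, 0.49, -0.75 and 0.03 in C-G2. In the rats given LPS they were -0.51, -0.72, -0.26 and -0.58 in LPS-G0, -0.65, -0.04, -0.05 and 0.17 in LPS-G1, and -0.13, 0.05, -0.25 and -0.16 in LPS-G2. All 4 LPS-G0 arrays were below 0 and below all 4 LPS-G2 arrays, C-G1 was the highest group, and each group overlapped its neighbour in the order of means (C-G1 0.24 ± 0.21, LPS-G2 -0.12 ± 0.13, LPS-G1 -0.14 ± 0.35, C-G2 -0.14 ± 0.53, C-G0 -0.31 ± 0.42 and LPS-G0 -0.52 ± 0.19, SD, n = 4 each).

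Irak1, the kinase that leaves the receptor complex to activate TRAF6, ran the other way. Its ratios were 1.07, -0.18, 0.41 and 0.04 in C-G0, 0.07, -0.96, 0.08 and -0.14 in C-G1, and 0.40, -0.32, 0.22 and -0.10 in C-G2. They were 0.34, 0.41, 0.46 and 0.30 in LPS-G0, 0.15, -0.33, 0.21 and -0.02 in LPS-G1, and 0.43, 0.47, 0.17 and -0.02 in LPS-G2. The 4 LPS-G0 arrays lay close together and above all 4 LPS-G1 arrays, and C-G1 held the lowest value, in replicate 2. The order of means was LPS-G0 (0.38 ± 0.07), C-G0 (0.33 ± 0.55), LPS-G2 (0.26 ± 0.23), C-G2 (0.05 ± 0.32), LPS-G1 (0.01 ± 0.24) and C-G1 (-0.24 ± 0.49), with every neighbouring pair overlapping.

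Irak2, the kinase that sustains the response, had Cy3 signals from 23.1 to 306 and was detected on 17 of 24 arrays. Its ratios were -2.18, 0.08, -1.55 and -0.16 in C-G0, 0.17, 0.43, 0.62 and -0.45 in C-G1, and -1.40, 0.21, -0.37 and -0.34 in C-G2. They were -0.39, -0.66, -0.02 and -1.12 in LPS-G0, -0.77, 0.08, 0.05 and -0.16 in LPS-G1, and -0.04, -0.18, -1.09 and -0.61 in LPS-G2. The 3 lowest values, in C-G0 replicates 1 and 3 and C-G2 replicate 1, came from arrays on which Irak2 was below background in Cy3. C-G1 was again the highest group (0.19 ± 0.47) and C-G0 the lowest (-0.95 ± 1.09).

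Irak3, the inhibitory member, followed Myd88 and Irak2. Its ratios were -1.19, -0.31, -0.21 and 0.02 in C-G0, 0.32, 0.45, 0.27 and -0.04 in C-G1, and -0.34, 0.27, -0.13 and -0.18 in C-G2. They were -0.37, -0.47, -0.15 and -0.56 in LPS-G0, -0.17, 0.21, 0.31 and -0.02 in LPS-G1, and 0.03, 0.06, -0.15 and 0.31 in LPS-G2. All 4 LPS-G0 arrays were below 0, and 3 of 4 arrays of LPS-G1 and of LPS-G2 were above each of them. The means ran from C-G1 (0.25 ± 0.21) through LPS-G1 (0.08 ± 0.22), LPS-G2 (0.06 ± 0.19), C-G2 (-0.10 ± 0.26) and LPS-G0 (-0.39 ± 0.17) to C-G0 (-0.42 ± 0.53), again with each neighbouring pair overlapping.

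**Figure D3:**
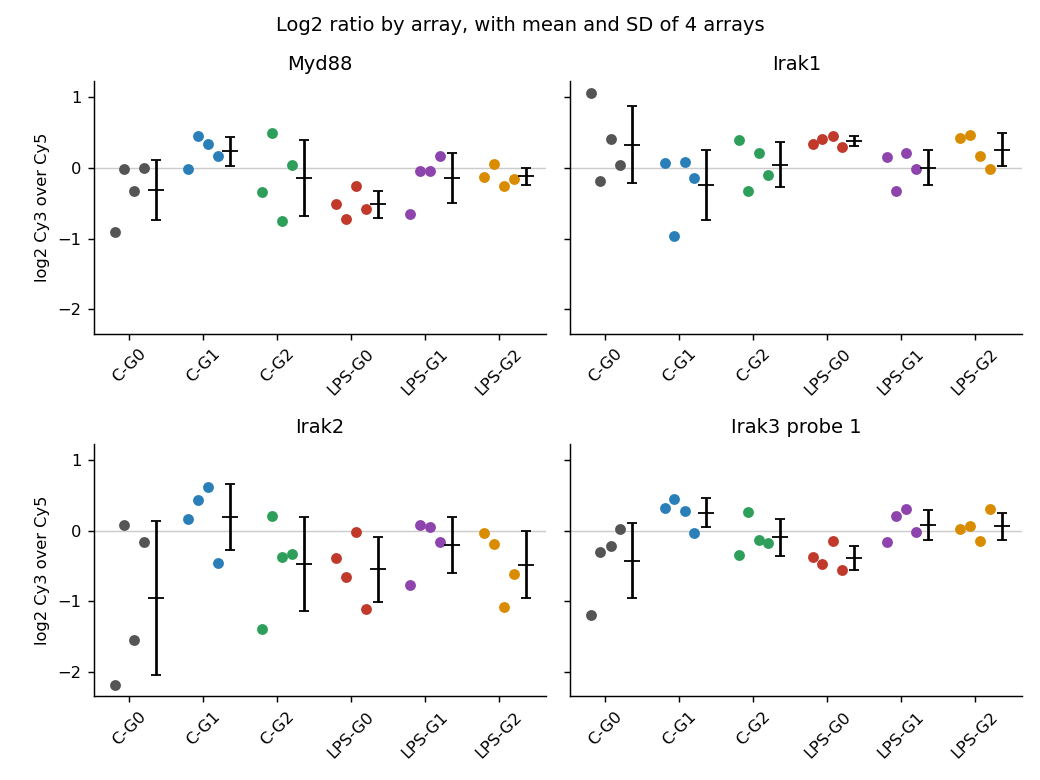
Points are the log2 Cy3 over Cy5 ratios of single arrays by group for the 4 tested genes, and the bars beside them give the mean ± SD of 4 arrays. Myd88, Irak2 and Irak3 are highest in C-G1, where Irak1 is lowest, and C-G0 has 1 array (replicate 1) at the far end of all 4 panels.

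The first comparison asked what LPS did to these genes in rats on the plain diet. In LPS-G0 vs. C-G0, 0 of the 4 genes changed (limma, Benjamini-Hochberg adjusted p under 0.05), where 0.0097% of all probes tested did, and 0 of 4 had an unadjusted p under 0.05, against 15.2% of all probes. The log2 change was -0.21 for Myd88 (95% confidence interval -0.64 to 0.23), 0.05 for Irak1 (-0.42 to 0.51), 0.41 for Irak2 (-0.47 to 1.28) and 0.04 for Irak3 (-0.42 to 0.49). The intervals of Myd88, Irak1 and Irak3 lay within 1 log2 unit of 0 on both sides, while that of Irak2 did not. Without C-G0 replicate 1 the changes were -0.40 for Myd88 (adjusted p = 0.147 from limma), 0.29 for Irak1, -0.0039 for Irak2 and -0.22 for Irak3, with 0 of 4 genes and 1136 probes past the threshold and 1 of the 4 at an unadjusted p under 0.05. Without LPS-G0 replicates 3 and 4 the changes were -0.30 for Myd88, 0.05 for Irak1, 0.43 for Irak2 and 0.0039 for Irak3.

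On the beta-glucan diets LPS also changed 0 of 4 genes. In LPS-G1 vs. C-G1, 0.00934% of all probes changed, and 2.81% had an unadjusted p under 0.05, with 0 of the 4, and the log2 changes were -0.38 for Myd88 (standard error 0.23, with 3 of 4 LPS-G1 arrays below all 4 of C-G1), 0.24 for Irak1, -0.39 for Irak2 and -0.17 for Irak3 and a lowest adjusted p of 0.950 from limma. In LPS-G2 vs. C-G2, 0 of 4 genes changed (0% of all probes, and 1.09% at an unadjusted p under 0.05, with 0 of the 4), with changes of 0.02, 0.21, -0.01 and 0.16 in the same order of genes. Over the 3 diets together, LPS changed 0 of 4 genes (0.0187% of all probes, and 9.61% unadjusted, with 0 of the 4), and the log2 changes were -0.19 for Myd88 (-0.47 to 0.09), 0.17 for Irak1 (-0.12 to 0.46), 0.003 for Irak2 (-0.49 to 0.50) and 0.01 for Irak3 (-0.24 to 0.25). The difference of the LPS effect between diets was tested as an interaction: for G1 against G0 and for G2 against G0, 0 of 4 genes changed (0% of all probes in both, and 3.01% and 5.57% unadjusted, with 0 of the 4), and the widest intervals were those of Irak2 (-2.01 to 0.42 and -1.63 to 0.80).

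The next comparisons asked what each beta-glucan did in rats given LPS. In LPS-G1 vs. LPS-G0, 8.93% of all probes changed, and of Myd88, Irak1 and Irak3 0 did. Irak3 was 0.47 higher on the log2 scale in LPS-G1 (standard error 0.21), with an unadjusted limma p under 0.05 and an adjusted p of 0.172, as was the case without adjustment for 26.9% of all probes. Irak1 was 0.37 lower in LPS-G1, with all 4 arrays below all 4 of LPS-G0 (p = 0.0286 by a two-sided exact permutation, which is as low as 4 against 4 arrays can give, and limma adjusted p = 0.280), a separation that 21.9% of all probes showed, and 14.6% in this direction. Myd88 differed by 0.38 (adjusted p = 0.251 from limma). Irak2 differed by 0.35, but it entered this test through LPS-G1 and was detected on 1 of 4 LPS-G0 arrays. Its difference is therefore given as a description and not counted. Within the 3 slides, Irak3 was higher in LPS-G1 (0.25 to 0.54) and Irak1 lower (-0.51 to -0.22) on each, whereas Myd88 ran from -0.04 to 0.76 and Irak2 from -0.25 to 0.96. The slides held 1 or 2 arrays of each group. On slides 2 and 3, LPS-G0 had 1 array each, replicates 3 and 4, whose records conflict. With arrays weighted by their quality, Irak3 and Myd88 passed the threshold in this comparison, and so did 2844 of the 10313 probes. Without LPS-G0 replicates 3 and 4, the differences were 0.50 for Irak3, -0.37 for Irak1, 0.47 for Myd88 and 0.33 for Irak2 (lowest adjusted p = 0.329 from limma).

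In LPS-G2 vs. LPS-G0, 0 of 4 genes changed (0% of all probes, and 8.23% at an unadjusted p under 0.05, with 0 of the 4). Myd88 was 0.40 higher on the log2 scale in LPS-G2, with all 4 arrays above all 4 of LPS-G0 (p = 0.0286 by the same exact permutation, and adjusted p = 0.597 from limma), where 10.5% of all probes did not overlap and 2.81% did so in this direction. Irak3 was 0.45 higher (exact p = 0.0571, adjusted p = 0.597), Irak1 differed by -0.12 and Irak2 by 0.07. Within each of the 3 slides, Myd88 and Irak3 were higher in LPS-G2 than in LPS-G0, by 0.31 to 0.48 and by 0.21 to 0.64, whereas Irak1 (-0.23 to 0.05) and Irak2 (-0.16 to 0.49) changed sign between slides. The only LPS-G0 arrays on slides 2 and 3 were replicates 3 and 4, whose records conflict. Without these 2 arrays the differences were 0.49 for Myd88 and 0.48 for Irak3. The comparisons with LPS-G0 and C-G0 share arrays, and their values are therefore not independent of each other.

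G1 and G2 beta-glucans, which differ in molecular weight, were compared directly in rats given LPS as 1 pair. In LPS-G1 vs. LPS-G2, 0 of 4 genes changed (0% of all probes, and 4.21% at an unadjusted p under 0.05, with 0 of the 4). The differences were -0.02 for Myd88 (-0.50 to 0.46), -0.25 for Irak1 (-0.76 to 0.25), 0.28 for Irak2 (-0.58 to 1.14) and 0.02 for Irak3 (-0.40 to 0.45) (95% confidence intervals), and the intervals do not show that the diets act alike. Irak2 entered the test through C-G1 and LPS-G1, so its difference is a description.

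The farthest values from 0 came from rats that received no LPS. In C-G1 vs. C-G0, Irak3 was 0.67 higher on the log2 scale in C-G1 (standard error 0.21, 1.60-fold), Myd88 0.55 higher (0.23, 1.46-fold) and Irak1 0.57 lower (0.24, 1.48-fold). These 3 genes had an unadjusted p under 0.05 from limma, as did 27.9% of all probes, and 0 of 3 passed after adjustment (adjusted p = 0.106, 0.1499 and 0.151), against 0.028% of all probes. For Irak3 and Myd88, 3 of 4 C-G1 arrays were above all 4 of C-G0, and the exact permutation p was 0.0571 and 0.0857. The mean ratios of Irak2 differed by 1.14, the widest distance of the 4 genes, but it entered the test through C-G1 and was below background on 2 of 4 C-G0 arrays, so its difference is given as a description and not counted. On slides 1 and 2, Irak2 was higher in C-G1 by 1.22 and 2.08, and Irak3 by 1.07 and 0.57, but on slide 3 the differences were -0.29 and -0.05, with 1 or 2 arrays of each group on a slide. Myd88 was higher in C-G1 on each slide (0.17 to 0.72) and Irak1 lower (-0.84 to -0.18).

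These differences turned on single arrays and on the processing. Without C-G0 replicate 1, they fell to 0.42 for Irak3, 0.35 for Myd88, -0.32 for Irak1 and 0.73 for Irak2 (lowest adjusted p = 0.471 from limma). Without C-G1 replicate 2, the array with the lowest Irak1, Irak1 was at -0.33 and the lowest adjusted p from limma was 0.356. Without C-G0 replicate 4, Irak3 was 0.82 higher and passed the threshold (adjusted p = 0.0227 from limma) along with 968 probes in all, and the distance of Irak2 was 1.41. With arrays weighted by quality, the differences were 0.43 for Irak3, 0.29 for Myd88, -0.18 for Irak1 and 0.65 for Irak2 (lowest adjusted p = 0.247), and with normexp and loess they were 0.41 for Irak3 and 0.30 for Irak2. The same contrast on the other beta-glucan, C-G2 vs. C-G0, changed 0 of 4 genes (0.028% of all probes, and 13.3% unadjusted, with 0 of the 4), with differences of 0.48 for Irak2, 0.33 for Irak3, 0.17 for Myd88 and -0.28 for Irak1.

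**Figure D4:**
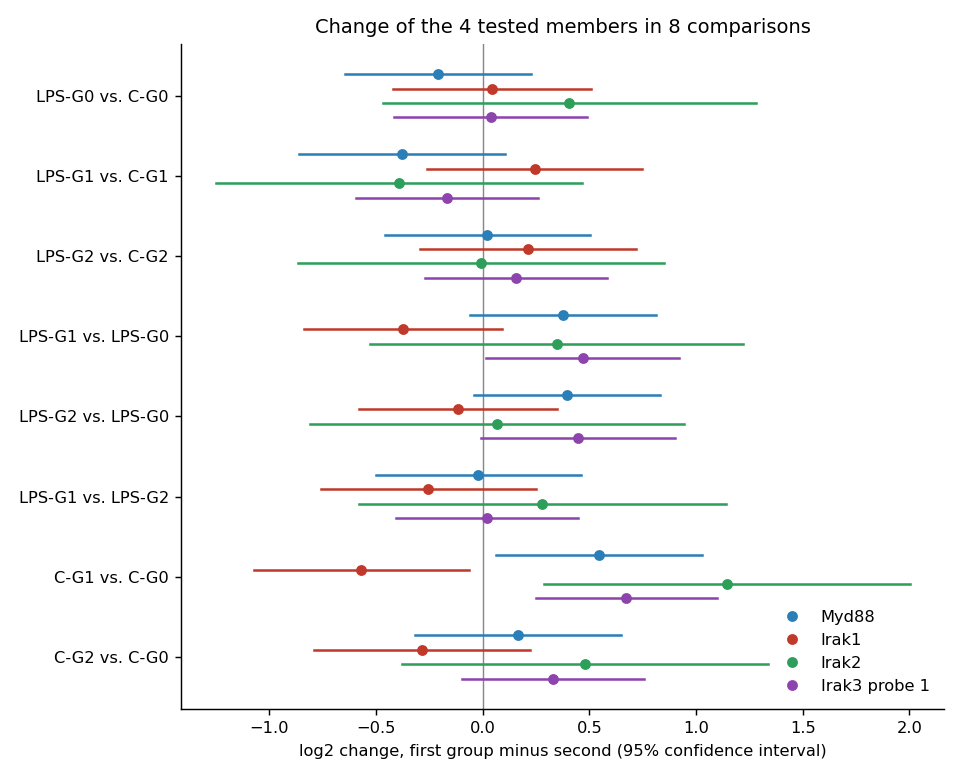
Points are log2 changes of the 4 tested genes in 8 comparisons (first group minus second) and lines their 95% confidence intervals from limma. In C-G1 vs. C-G0, Irak1 lies at -0.57, Myd88 at 0.55 and Irak3 at 0.67 with intervals clear of 0, Irak2 at 1.14 was admitted to the test through C-G1, and in LPS-G0 vs. C-G0 all 4 cross it.

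The ratios of the 4 genes were correlated across the 24 arrays, 3 in one direction and Irak1 in the other. The relations were examined after the values had been seen, as 34 in all, counting those with the cell lists below, with p from 100000 permutations adjusted over the 34. The permutations took no account of group or slide, and the share of all gene pairs with such r was not computed. Genes other than the members reached r = 0.95 with Myd88, so these values do not set the 4 genes apart from other genes. Myd88 correlated with Irak3 (Pearson's r = 0.77, adjusted p = 0.000227; Spearman's rho = 0.67, adjusted p = 0.0036) and with Irak2 (r = 0.72, adjusted p = 0.000544; rho = 0.73, adjusted p = 0.00102). Irak2 correlated with Irak3 (r = 0.78, adjusted p = 0.000227; rho = 0.72, adjusted p = 0.00102). Irak2 entered the test through its high groups, C-G1 and LPS-G1, and was detected in Cy3 on 17 of 24 arrays. Its lowest values came from arrays on which it was below background. Correlations with Irak2, here and below, are therefore given as a description.

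Irak1 was inverse to all of these. Its r was -0.72 with Myd88 (adjusted p = 0.000255; rho = -0.65, adjusted p = 0.00448), -0.70 with Irak3 (adjusted p = 0.00214; rho = -0.48, adjusted p = 0.0606) and -0.64 with Irak2 (adjusted p = 0.00293; rho = -0.52, adjusted p = 0.0368). Leaving out the 2 arrays farthest from the median of Myd88 moved its r with Irak1 to -0.67. Leaving out the 2 arrays farthest from the median of Irak1 moved r to -0.44 with Irak3 and -0.42 with Irak2. The arrays left out differed, so these values do not rank the pairs. After subtraction of the group means, r was -0.62, -0.62 and -0.54, so the inverse relation was present among arrays of the same group. The sign was the same on each of the 3 slides (8 arrays each) for all 6 pairs, between -0.50 and -0.88 for the pairs with Irak1 and between 0.46 and 0.84 for the others.

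The genes whose ratios most resembled a member's over the 24 arrays, among 9675 genes, were Apbb1ip, Akna and Capza2 for Myd88 (r = 0.95, 0.92 and 0.91) and Ankrd39, Dnajb2 and Col9a2 for Irak1 (r = 0.91, 0.90 and 0.90). For Irak2 they were Fam76a, Gfm1 and Chsy1 (r = 0.90, 0.89 and 0.88), and for Irak3 Arpc5l, Ctsa and a transcript listed as TC583462 (r = 0.91, 0.91 and 0.90). These r values are given as a description. None of the 12 nearest genes was another member.

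The level of red cell transcripts varied alongside. The erythroid list (Alas2, Slc4a1, Epb42, Ahsp, Klf1 and Hbb, genes of heme synthesis, the red cell membrane, haemoglobin and its control) was tested for 6 of 6 genes, each detected on 24 of 24 arrays. Its mean log2 ratio ran from -1.35 to -0.32 in C-G1, from -0.67 to -0.02 in LPS-G1, from -0.43 to 0.08 in C-G2, from -0.09 to 0.15 in LPS-G2, from -0.33 to 0.23 in C-G0 and from 0.10 to 0.22 in LPS-G0. By group means, the order of the list was that of Irak1 from LPS-G0 at the top to C-G1 at the bottom.

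Across arrays, the mean erythroid level correlated with Irak1 at r = 0.86 (adjusted p = 0.000227; rho = 0.845, adjusted p = 0.00034). It correlated inversely with Myd88 (r = -0.69, adjusted p = 0.00068; rho = -0.73, adjusted p = 0.00102), Irak2 (r = -0.57, adjusted p = 0.0198; rho = -0.585, adjusted p = 0.0131) and Irak3 (r = -0.59, adjusted p = 0.0198; rho = -0.60, adjusted p = 0.0118). Without the 2 arrays farthest from the median of the erythroid level, r was 0.74 for Irak1, -0.71 for Myd88, -0.55 for Irak2 and -0.525 for Irak3. Within groups, r was 0.82 for Irak1 and -0.51, -0.41 and -0.37 for Myd88, Irak2 and Irak3, and on the 3 slides r for Irak1 was 0.81, 0.93 and 0.84. For Myd88 it was between -0.67 and -0.70, and on slide 3 it was -0.31 for Irak2 and -0.28 for Irak3. The part of red cell RNA in the differences of these 4 genes between groups was not tested.

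**Figure D5:**
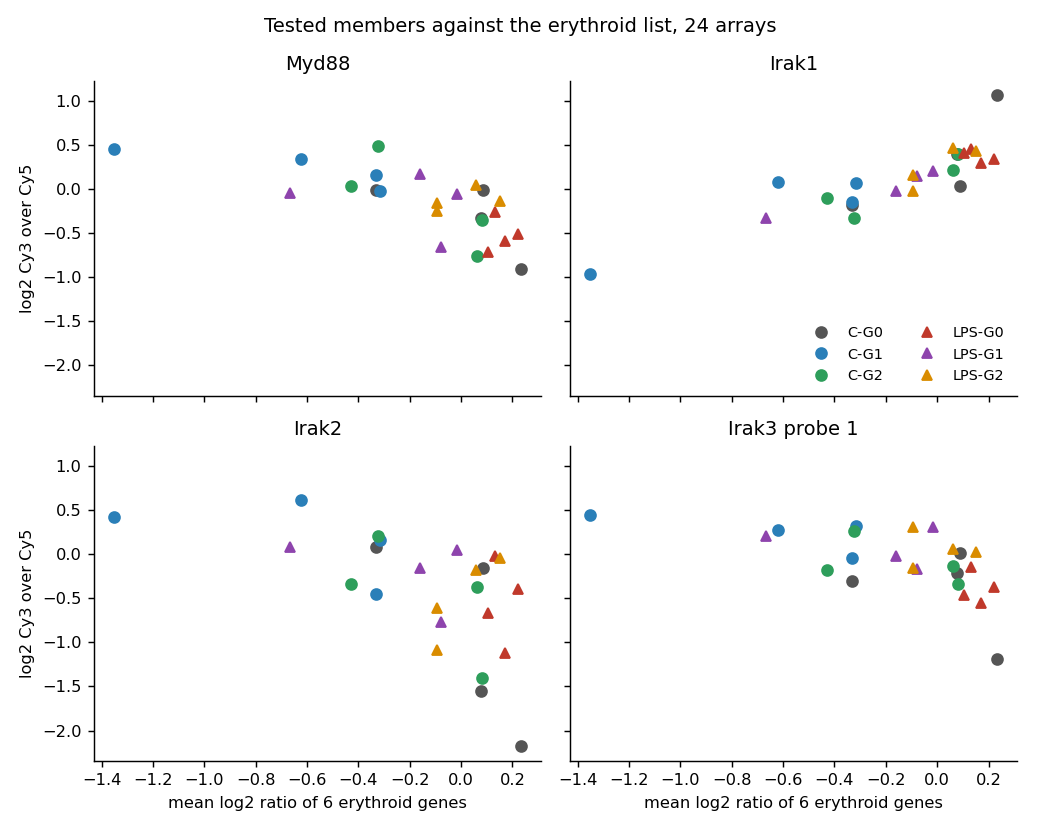
Each point is 1 of the 24 arrays, with the mean log2 ratio of 6 erythroid genes on the horizontal axis and the log2 ratio of a member on the vertical axis, colored by group (circles without LPS, triangles with LPS). Irak1 rises with the erythroid level (r = 0.86) while Myd88, Irak2 and Irak3 fall, and C-G1 replicate 2 lies alone at -1.35.

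Over the 24 arrays, r with each of the 4 genes was nearer to 0 for the leukocyte lists than for the erythroid list, and the difference was not tested. Within groups this did not hold for Irak2 and Irak3: r was 0.46 for NK cells and 0.42 for T cells with Irak2, and 0.51 for B cells with Irak3. The monocyte list (7 of 10 genes tested, with Cd163 and Mrc1 detected on 0 arrays) correlated with Myd88 at r = 0.45 (adjusted p = 0.0726; rho = 0.35) and with Irak3 at r = 0.41 (adjusted p = 0.0995; rho = 0.12). The neutrophil list (5 of 10 tested, with Ltf detected on 0 arrays) had r between -0.20 and 0.22 with the 4 genes. The mean neutrophil level was lowest in LPS-G0 (-0.65 to -0.14), the group in which Myd88 was lowest, and reached 0.93 in C-G2. This was not particular to neutrophils, since the monocyte and B cell lists also had their lowest group mean in LPS-G0 (-0.22 and -0.18). Of the remaining 16 relations, with T cell, B cell, NK cell and platelet lists, 1 had an adjusted p under 0.05 by Pearson's r, T cells with Irak1 (r = -0.50, adjusted p = 0.0329), and its rho did not (adjusted p = 0.218).

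The neighbours of the 10 genes in the pathway were followed through 5 lists. Of 13 other genes of LPS binding and receptor assembly, 9 were tested, of 19 genes of the MyD88 arm below the IRAKs 12, of 10 genes of the TRIF arm 6, of 14 brakes of the pathway 7, and of 15 cytokines and other early targets 8. Several central genes were detected on 0 arrays, among them Ticam2 and Tbk1 of the TRIF arm, Chuk, Ikbkg and Mapk8 of the MyD88 arm, the deubiquitinase Tnfaip3, and Il6, Cxcl1 and Ptgs2.

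In 10 of the 11 comparisons, 0 genes of these 5 lists changed, where between 0% and 0.028% of all probes tested did. The 0 is therefore not particular to these lists. In LPS-G0 vs. C-G0 the median log2 change was -0.08 for LPS binding, -0.12 for the MyD88 arm, -0.13 for the TRIF arm, 0.04 for the brakes and 0.19 for the cytokines, beside 0.03 over all probes. In LPS-G1 vs. LPS-G0 the medians were 0.20, 0.16, 0.32, 0.21 and 0.17 in the same order, beside 0.06 over all probes. In C-G1 vs. C-G0 they were 0.26, 0.07, 0.01, 0.38 and 0.34, beside 0.02 over all probes.

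The exception was the TRIF arm in LPS-G1 vs. LPS-G0, where 2 of 6 genes were called lower and 0 higher, against 8.39% of all probes called lower. The arm as a whole was not lower: the change was above 0 for 4 of its 6 genes, and its median was 0.32. Irf7, the transcription factor that drives type I interferon genes, was lower in LPS-G1 by 1.14 on the log2 scale (standard error 0.29, adjusted p = 0.0289 from limma), and Tank, which binds TRAF family proteins and the kinase TBK1, by 0.69 (0.19, adjusted p = 0.0357). Both calls were lost when single arrays were left out: 6 of 8 such fits, all except those without LPS-G1 replicate 1 or LPS-G0 replicate 3, gave an adjusted p over 0.05 for each gene, with changes from -1.402 to -0.98 for Irf7 and from -0.79 to -0.59 for Tank. Of 11 other settings, 6 also gave an adjusted p over 0.05 for each gene, up to 0.306, with the direction kept. Without LPS-G0 replicates 3 and 4 the adjusted p was 0.130 for Irf7 and 0.133 for Tank. Among the cell lists, Klf1 and Epb42 of the erythroid list and the NK receptor gene Klrk1 fell in this comparison, by 0.81, 0.93 and 0.48 (2 of 6 erythroid and 1 of 5 NK cell genes tested). The change was above 0 for 2 of the 6 erythroid genes and 0 of the 5 NK cell genes. The calls were lost in 6 of 8 fits without single arrays for Klf1 and Klrk1 and in 7 of 8 for Epb42. They were also lost in 6 of 11 other settings for each, with the direction kept.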

How the data were processed

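Blood RNA of 24 rats was hybridised to two-color Agilent arrays (8 arrays on each of 3 slides) against a common reference. Per the file headers, the authors' Feature Extraction step (10.10.1.1, whereas the labels and methods give 10.7.3.1) subtracted background and normalized the dyes (LOWESS settings in the header). The deposited log10 ratio is Cy5 over Cy3. It was turned to log2 Cy3 over Cy5 here, and the deposited processed intensity of each channel, on a linear scale, gave the signals. A deposited table of the series held the same ratios in 1511424 of 1511424 values.

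Outlier spots (679 to 1133 of 58717 non-control spots per array) were left out and spots of a probe averaged. A probe was well above background on an array when at least 0.5 of its spots were. Groups were compared with limma 3.58.1 in R 4.3.3 (two-sided, Benjamini-Hochberg over all probes tested, called at an adjusted p under 0.05 with any fold change), the 3 comparisons of the study on 16 arrays and 8 others on 24, and single probes by exact permutation over 70 arrangements. Probes were tied to genes by the array's names, and 11 of 12 accessions matched RefSeq. No annotation of rn4 was used, so exons and UTRs are not given here.

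Each array is 1 rat, so p-values measure the spread between rats together with that of the assay. Same-numbered arrays of different groups had a mean correlation of 0.11, against -0.04 for arrays of other numbers, and did not count as pairs. By pair of groups the mean ran from -0.09 to 0.33. With replicate number as a block, 600 probes were called in C-G1 vs. C-G0, against 3 without it. Named genes were every member, up to 3 called genes in each direction from each list and comparison, and the 3 genes nearest each tested member. The members and lists were chosen with earlier results of these data known. 1 gene of the erythroid list is not reported here and was left out of the list's values. Alternatives were normexp with loess, Cy3 alone, other filters, slide or replicate blocks, a variance trend, array weights, other sets of arrays, and Tukey's HSD after an analysis of variance, as in the study's methods.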

Additional observations from a re-analysis of the deposited data

How the results depend on the processing

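The count of 0 members called was kept in 105 of 107 other settings and in 119 of 120 fits that left out 1 array. The number of members tested was not 4 in every setting: some did not test Irak2, and the setting without a filter tested all 12 probes. In LPS-G1 vs. LPS-G0, array weights gave 2 genes (lowest adjusted p 0.0145), and in C-G1 vs. C-G0 the replicate block gave 1 gene, Irak3 (adjusted p = 0.0491), and leaving out single arrays gave 0 to 2, where 2 counts Irak2, which entered the test through C-G1. The replicate block changed no other call of a member. Tukey's HSD after an analysis of variance, the test named in the study's methods, called 0 of 4 in its 3 comparisons. Over all probes, the count ran from 0 to 1142 in LPS-G0 vs. C-G0 (1 as reported), 0 to 2844 in LPS-G1 vs. LPS-G0 (921), 0 to 968 in C-G1 vs. C-G0 (3) and 0 to 355 in C-G2 vs. C-G0 (3). The causes were not tested.

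Of 414 log2 changes of members in other settings, 391 kept direction and call, 3 became called and 20 changed sign, and of 480 with 1 array left out, 430, 2 and 48. The sign changed as follows. In LPS-G0 vs. C-G0, Irak3 was -0.041 with normexp and loess, -0.0054 with Cy3 alone and -0.14 with array weights, and Irak1 was -0.051 with Cy3 alone. In LPS-G2 vs. C-G2, Myd88 was -0.0089 with Cy3 alone and Irak2 0.063 with array weights. In C-G2 vs. C-G0, Myd88 was -0.062 with array weights. In LPS-G1 vs. LPS-G2, Myd88 was 0.14 with Cy3 alone and 0.036 with array weights, and Irak3 -0.035 with Cy3 alone and -0.032 with the slide block. For LPS over the 3 diets, Irak2 was -0.065 with normexp and loess and -0.070 with Cy3 alone, and Irak3 -0.0063, -0.0042 and, without LPS-G0 replicates 3 and 4, -0.0024. With array weights, the LPS effect on G1 minus that on G0 was 0.15 for Myd88, -0.20 for Irak1 and 0.079 for Irak3, and that on G2 minus G0 was -0.015 for Irak1.

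With single arrays left out, the ranges that crossed 0 were -0.13 to 0.29 (Irak1), -0.0039 to 0.75 (Irak2) and -0.22 to 0.18 (Irak3) in LPS-G0 vs. C-G0, -0.12 to 0.27 (Irak2) in LPS-G2 vs. LPS-G0, -0.18 to 0.23 (Myd88) and -0.32 to 0.22 (Irak2) in LPS-G2 vs. C-G2, and -0.046 to 0.37 (Myd88) in C-G2 vs. C-G0. They were -0.12 to 0.15 (Myd88) and -0.054 to 0.10 (Irak3) in LPS-G1 vs. LPS-G2, and -0.13 to 0.12 (Irak2) and -0.077 to 0.058 (Irak3) for LPS over the diets. For the LPS effect on G1 minus G0 they were -0.27 to 0.027 (Myd88), -0.048 to 0.37 (Irak1) and -0.35 to 0.051 (Irak3), and on G2 minus G0 -0.078 to 0.34 (Irak1) and -0.028 to 0.38 (Irak3).

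By the filter on dim probes, Tlr4, Ly96, Cd14, Lbp, Tirap and Irak4 were not tested in the main fits, being above background in Cy3 on 0 to 16 of 24 arrays. Without that filter they were tested, and 0 members were called in any comparison.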
